A study of Mus musculus with 16 samples.

Results

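Genes of major histocompatibility complex (MHC) class I antigen presentation were examined in RNA-seq of mouse cortex. The 10 members were taken by gene name, H2-K1, H2-D1, H2-T23, H2-Q2, H2-Q4, H2-Q6, H2-Q7, B2m, Tap1 and Tapbp, from a table of 47593 genes. The rule used names and not measured values, but it was proposed with earlier results of these data known. All 10 passed the filter on low counts that left 16553 genes for testing. The paper on these libraries also names H2-Q7, so interest in that gene did not arise independently of these data.

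Class I molecules present peptides from inside the cell to CD8 T cells and natural killer cells. The heavy chain (encoded by H2 genes on mouse chromosome 17) pairs with beta-2-microglobulin, the transporter Tap carries peptides into the endoplasmic reticulum, and tapasin holds the empty heavy chain close to the transporter. In brain, microglia and endothelial cells are the best-known sources of class I transcripts, neurons also make them, and interferons raise them in most cells.

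All 16 libraries came from heterozygous 5xFAD mice, a model of amyloid deposition on a C57BL/6-SJL hybrid background that carries mutant human transgenes driven by the neuron-specific Thy-1 promoter, so every group carried the transgenes and no group lacked them. Female and male mice received a vehicle diet holding the microencapsulation carrier (FC and MC) or a diet with microencapsulated rapamycin, an mTOR inhibitor (FR and MR), from 2 to 5 months of age, with 4 libraries in each of the 4 groups. Libraries are named here by group and label number, as FC2; the FR libraries are numbered 1, 2, 4 and 5. The labels put FC4, FR4, FR5, MC4 and MR4 in batch 2 and the other 11 libraries in batch 1, and do not say what the batch was.

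Totals ran from 16393501 to 20593089 read pairs assigned to genes per library. The library labelled male rapamycin 4 (MR4) held 9935 read pairs of Xist, the X-inactivation RNA of females. It held 0 over Eif2s3y, Kdm5d, Uty and Ddx3y, which lie on the Y chromosome. The other 7 male libraries held 1 to 17 of Xist and 1915 to 2231 of the Y-linked genes. MR4 was kept in its labelled group, and some, not all, of the results that rest on it are also given without it. The mitochondrial share of counts was 6.88% to 6.99% in FR1, FR2 and MR2 and 3.76% to 5.08% in the other rapamycin libraries, against 2.64% to 5.47% on vehicle. The slope of log2 CPM on log2 exon length, each gene set against its mean over libraries, was -0.127 to -0.121 in the same 3 libraries and -0.0333 to 0.0640 in the other rapamycin libraries, against 0.000395 to 0.1005 on vehicle. With either as a covariate edgeR called 0 genes for diet over both sexes, so every edgeR call for diet over both sexes given below is lost in those fits; the part of RNA quality was not tested further. The study's account of the sequencing mentions pooling of mice, a caption counts as many mice per group as there are libraries here, and the labels do not say whether a library was 1 mouse, so p-values measure the spread between these libraries.

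The sequences before the start sites are printed to show the letters that 5 of the heavy chain genes share there, beside those of H2-Q2, a heavy chain gene of the same row, and of B2m. Each line gives the 200 bases before the RefSeq start in GRCm38.p6, 5′ to 3′ on the gene's strand. Capitals mark, on either strand, GGGATTNCC (the form of an NF-kappa-B site), GAANNGAAA or GAAANNGAA (forms within an interferon response element), TGATGAC (the form of a cyclic AMP response element) and CCAAT; the marked runs do not overlap.
H2-K1: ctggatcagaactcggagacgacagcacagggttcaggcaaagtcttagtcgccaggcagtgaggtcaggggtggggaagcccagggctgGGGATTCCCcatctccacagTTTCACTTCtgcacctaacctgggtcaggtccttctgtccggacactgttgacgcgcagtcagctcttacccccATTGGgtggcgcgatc
H2-D1: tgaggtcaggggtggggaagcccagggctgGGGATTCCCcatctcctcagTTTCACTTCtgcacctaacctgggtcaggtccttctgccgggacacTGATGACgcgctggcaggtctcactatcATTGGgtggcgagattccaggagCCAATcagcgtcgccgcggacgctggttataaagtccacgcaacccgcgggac
H2-Q4: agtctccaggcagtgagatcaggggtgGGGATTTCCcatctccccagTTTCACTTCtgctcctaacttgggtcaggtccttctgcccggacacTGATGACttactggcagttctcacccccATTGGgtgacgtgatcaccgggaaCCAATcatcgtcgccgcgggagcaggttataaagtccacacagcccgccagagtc
H2-Q6: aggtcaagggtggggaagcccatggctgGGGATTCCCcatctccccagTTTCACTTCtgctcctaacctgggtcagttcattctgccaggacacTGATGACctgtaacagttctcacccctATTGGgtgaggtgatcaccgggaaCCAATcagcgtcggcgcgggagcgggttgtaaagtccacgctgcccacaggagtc
H2-Q7: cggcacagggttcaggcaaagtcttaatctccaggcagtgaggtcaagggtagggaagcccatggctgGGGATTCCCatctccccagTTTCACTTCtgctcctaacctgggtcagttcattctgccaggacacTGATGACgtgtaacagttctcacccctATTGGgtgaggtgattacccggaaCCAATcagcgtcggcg
H2-Q2: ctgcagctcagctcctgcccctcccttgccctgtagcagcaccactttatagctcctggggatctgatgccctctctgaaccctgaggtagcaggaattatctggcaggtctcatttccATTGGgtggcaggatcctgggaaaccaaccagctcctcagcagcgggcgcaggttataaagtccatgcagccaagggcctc
B2m: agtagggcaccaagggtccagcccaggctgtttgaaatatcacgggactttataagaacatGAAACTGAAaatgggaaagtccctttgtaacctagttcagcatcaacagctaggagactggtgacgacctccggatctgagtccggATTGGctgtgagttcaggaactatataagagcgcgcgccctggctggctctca

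These windows lie at chr17:34000348-34000547 on the minus strand for H2-K1 (the first of 2 RefSeq starts), and on the plus strand at chr17:35262894-35263093 for H2-D1, chr17:35379417-35379616 for H2-Q4, chr17:35424650-35424849 for H2-Q6, chr17:35438955-35439154 for H2-Q7, chr17:35342107-35342306 for H2-Q2 and chr2:122147487-122147686 for B2m. Over 32851 RefSeq promoters of 250 bases before and 50 after the start, GGGATTNCC was held by 308 (0.938%), among them H2-K1, H2-D1, H2-Q4, H2-Q6 and H2-Q7. The same 5 members held GAANNGAAA, found in 7.52% of promoters. Neither was held by the other 5 members, H2-Q2, B2m, H2-T23, Tap1 and Tapbp. GAAANNGAA, found in 8.56%, was held by B2m and H2-T23. TGATGAC was held by H2-D1, H2-Q4, H2-Q6 and H2-Q7 and by 3.23% of promoters, and CCAAT by all 10 members and 37.4%. TATAAA was held by H2-D1, B2m, H2-Q2 and H2-Q4, in lower case above, by H2-K1 after the start and so outside the printed bases, and by 13.6% of promoters. Of the motifs searched in these promoters of 250 bases before and 50 after the start, H2-Q2 held only CCAAT and TATAAA. Tap1 and Tapbp held only CCAAT, in Tap1 at -222. The motifs were picked after the sequences were read, and a match describes letters, not binding.

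In the counted gene models (GRCm38), H2-K1 ran from 33996017 to 34000333 on chromosome 17, H2-D1 from 35262730 to 35267499, H2-T23 from 36029773 to 36032855, H2-Q2 from 35342242 to 35346762, H2-Q4 from 35379617 to 35385290, H2-Q6 from 35424850 to 35430055, H2-Q7 from 35439155 to 35443773, Tap1 from 34187553 to 34197225 and Tapbp from 33915899 to 33929288. B2m was the member elsewhere, on chromosome 2 from 122147686 to 122153083. The counted model of H2-D1 starts before the RefSeq start, so its printed window lies inside that model. The printed window of H2-Q2 partly overlaps its model, and that of B2m does so at its last base. Counts were over exons of each gene. Read pairs that fitted several places or several genes were left out of them, which lowers genes with near-identical copies. Of the 100-base windows of annotated transcripts, none of B2m's, 0.957% of H2-K1's, 3.59% of H2-D1's, 3.15% of H2-T23's and 1.93% of Tap1's also lay in another gene. The shares were 5.09% for H2-Q2 (with H2-Q1), 13% for H2-Q6 (8.36% with H2-Q7), 12% for H2-Q7 (5.56% with H2-Q10), 14.1% for H2-Q4 and 14.8% for Tapbp (14.7% with Gm19412), so levels of the H2-Q genes are uncertain beyond counting error. Which H2 alleles each mouse of the hybrid background carried was not examined.

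Levels were compared between genes per length, as counts per 1000000 read pairs (CPM) divided by exon length in kilobases (RPKM), on the linear scale. B2m was the highest in each of the 16 libraries, at 84.3 to 254 RPKM with a median of 141. The classical heavy chains H2-D1 and H2-K1, which present peptides to CD8 T cells, followed at medians of 29.6 and 17.97 RPKM, and H2-D1 exceeded H2-K1 in 16 of 16 libraries. Tapbp, which encodes tapasin, had a median of 10.9 RPKM, and H2-T23, the heavy chain Qa-1 that engages natural killer receptors, 8.88; these neighbours overlapped in range, with Tapbp higher in 14 of 16. H2-Q4 stood at 2.51. Tap1, a subunit of the peptide transporter, at 1.09, and H2-Q6, at 1.03, were not separated, with Tap1 higher in 8 of 16. H2-Q2, at 0.324, and H2-Q7, at 0.322, were the lowest, and H2-Q2 was the higher of the pair in 6 of 16. H2-Q6 and H2-Q7 are nonclassical heavy chains of the Qa-2 group.

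By RPKM the class I light chain exceeded all heavy chain members together in every library. This rests on the exon length counted for each gene, 860 bases for B2m and 2608 for H2-K1. That length covers all annotated exons and can exceed the main transcript. Leaving out read pairs that fit several places also lowers heavy chains with near-identical copies. B2m stood at 1.75 to 3.17 times the summed RPKM of the 7 heavy chains, and H2-K1 and H2-D1 made up 72.0% to 81.8% of that sum. H2-D1 was 1.37 to 1.97 times H2-K1 per length, while the level itself spanned 2.70-fold for H2-K1 and 3.26-fold for H2-D1.

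**Figure D1:**
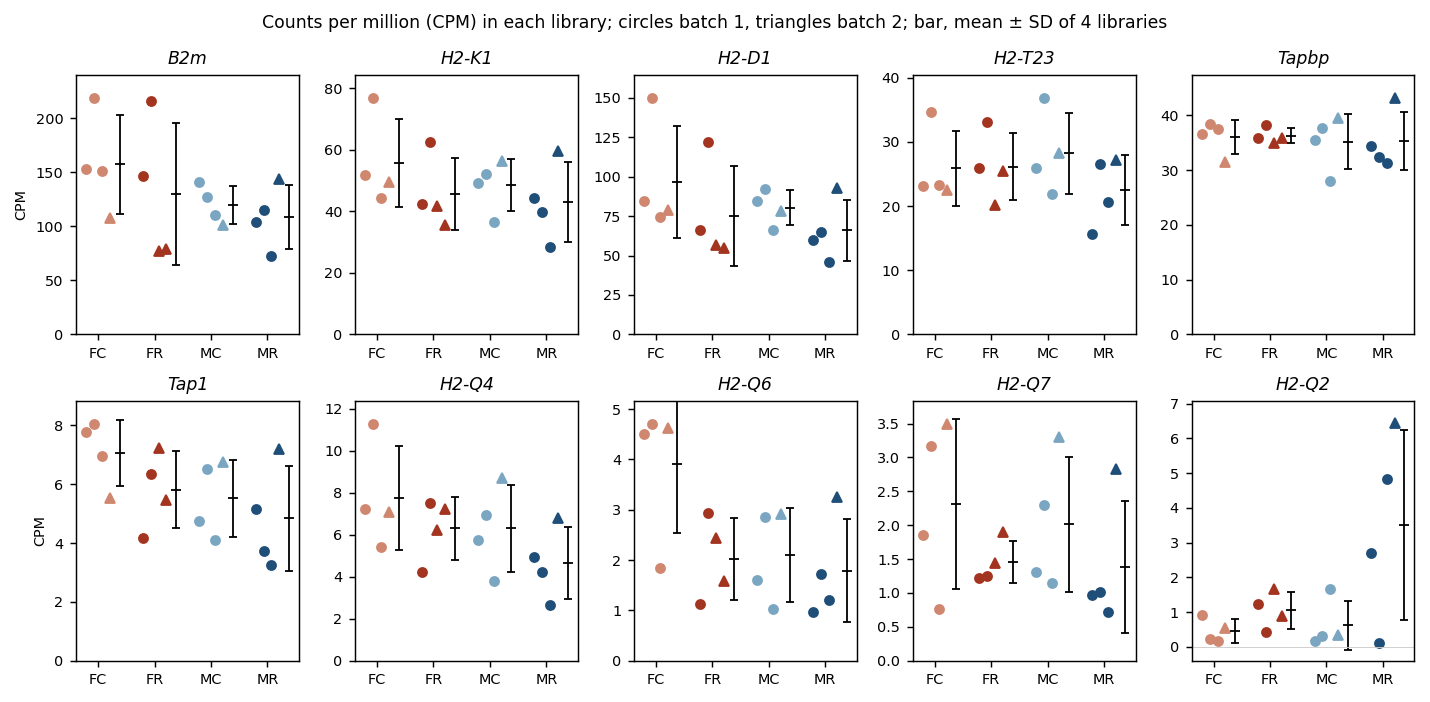
Level (CPM, linear axis) of the 10 members in each library, by group; circles are batch 1, triangles batch 2, and bars give the mean ± SD of 4 libraries. FC2 lies at the top and MR3 at the bottom for B2m, H2-K1, H2-D1, Tap1 and H2-Q4, while H2-Q2 is high in MR1, MR3 and MR4.

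The question of the design was whether rapamycin changed these transcripts. No member passed an adjusted p of 0.05 for rapamycin against vehicle over both sexes by edgeR, where 13.3% of all tested genes did. Of the 10 log2 fold changes 9 lay below 0, from -0.74 for H2-Q7 to -0.00 for Tapbp, and the exception was H2-Q2 at 1.76. The median over the members was -0.27, beside 0.02 over all genes tested, of which 47.7% lay below 0. An unadjusted p under 0.05 was held by 4 members (H2-Q4, H2-Q6 and H2-Q7 with values below 0, H2-Q2 above) and by 30.4% of all genes. DESeq2 called 1 member, H2-Q7, and the share of all genes that DESeq2 called is not given here. Fewer cells of a type and less RNA per cell cannot be told apart in this tissue.

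B2m stood at 153, 219, 152 and 107 CPM in FC1 to FC4, 147, 216, 77.6 and 79.3 in FR1, FR2, FR4 and FR5, 141, 127, 110 and 101 in MC1 to MC4, and 104, 115, 72.5 and 144 in MR1 to MR4. The diets overlapped in both sexes, and FC2 and FR2 stood far above the other females. The log2 fold change was -0.15 (SE 0.18, 95% interval -0.53 to 0.23, adjusted p = 0.617), which spans falls and rises. Without the library labelled MR4 the change of B2m was -0.31 (adjusted p = 0.161). FC2 held the highest level of 6 members, and MR3 the lowest of 6.

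H2-D1 also was highest in FC2, next in FR2 and lowest in MR3, at 84.5, 150, 74.6 and 78.6 CPM in FC1 to FC4 and 66.4, 122, 56.8 and 54.9 in the FR libraries. The MC libraries held 84.8, 92.0, 66.3 and 78.3 and the MR libraries 59.97, 65.1, 45.8 and 92.6, so the groups overlapped. Its change was -0.31 (SE 0.19, 95% interval -0.70 to 0.08, adjusted p = 0.281).

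H2-K1 ranged from 44.4 to 76.8 CPM in FC, 35.5 to 62.7 in FR, 36.7 to 56.3 in MC and 28.4 to 59.8 in MR, again with overlap. Its change was -0.24 (SE 0.16, 95% interval -0.57 to 0.09, adjusted p = 0.325). Without the library labelled MR4 the adjusted p was 0.147. The intervals of both classical heavy chains reached from 0.675 (H2-K1) and 0.616 (H2-D1) times the vehicle level to above it.

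H2-T23 ranged from 22.5 to 34.7 CPM in FC, 20.2 to 33.1 in FR, 21.96 to 36.8 in MC and 15.7 to 27.1 in MR (change -0.15, SE 0.15, adjusted p = 0.534). Tapbp was the steadiest member, at 28.02 to 43.1 CPM over all 16 libraries, with a change of -0.00 (SE 0.08, 95% interval -0.18 to 0.17, adjusted p = 0.985). Its sign turned under other settings, and its interval ran from 0.882 to 1.13 times the vehicle level. Tap1 lay at 5.53 to 8.03 CPM in FC, 4.18 to 7.25 in FR, 4.09 to 6.77 in MC and 3.26 to 7.21 in MR, and its change was -0.29 (SE 0.17, adjusted p = 0.252). In batch 2 alone the sign of Tap1 turned, to 0.16.

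H2-Q7 held 1.86, 3.17, 0.762 and 3.49 CPM in FC1 to FC4, from 14 to 58 read pairs. FR1, FR2, FR4 and FR5 held 1.22, 1.25, 1.44 and 1.90. MC1 to MC4 held 1.31, 2.30, 1.15 and 3.30, and MR1 to MR4 held 0.973, 1.01, 0.724 and 2.83. The 2 highest libraries of the vehicle groups, FC4 and MC4, were in batch 2, as was the highest rapamycin library, MR4. Over both sexes H2-Q7 had a log2 fold change of -0.74 (SE 0.26, 95% interval -1.29 to -0.19), a level 0.599 times that on vehicle, with an adjusted p of 0.0669. Without FC3 the adjusted p was 0.0410 and without the library labelled MR4 it was 0.0509.

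Its neighbour H2-Q6 held 4.495, 4.69, 1.85 and 4.63 CPM in FC1 to FC4 and 1.12, 2.94, 2.43 and 1.59 in the FR libraries. MC1 to MC4 held 1.60, 2.85, 1.04 and 2.91, and MR1 to MR4 held 0.973, 1.72, 1.21 and 3.24. Of the 4 FC libraries 3 lay above all other libraries, and FC3 lay among the rest. The change over both sexes was -0.69 (SE 0.29, 95% interval -1.31 to -0.07, adjusted p = 0.123). Without the library labelled MR4 the adjusted p was 0.0649.

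H2-Q4 ranged from 5.44 to 11.3 CPM in FC, 4.23 to 7.50 in FR, 3.81 to 8.72 in MC and 2.65 to 6.80 in MR. Its change was -0.43 (SE 0.19, 95% interval -0.84 to -0.02, adjusted p = 0.147). H2-Q4, H2-Q6 and H2-Q7 lie in 1 row on chromosome 17 and were not taken as independent of each other. H2-Q6 shared 8.36% of its windows with H2-Q7, while H2-Q4 shared 11.8% with Gm11131 and 1.16% with H2-Q6.

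H2-Q2, a heavy chain gene of the same row, was the member with a positive change. It gave 19, 4, 3 and 9 read pairs in FC1 to FC4 (0.928, 0.226, 0.163 and 0.541 CPM) and 24, 8, 30 and 17 in the FR libraries (1.22, 0.435, 1.66 and 0.874 CPM). MC1 to MC4 gave 3, 6, 29 and 6 (0.178, 0.300, 1.67 and 0.336 CPM), and MR1 to MR4 gave 47, 2, 80 and 125 (2.69, 0.119, 4.83 and 6.44 CPM). MR2 was the lowest of all 16 libraries although 3 of its group were the highest, and MC3 stood apart from the other vehicle-fed males. The level spanned 28.7-fold, and H2-Q2 took 1.17% (FC2) to 51.3% (MR3) of the CPM of the 4 H2-Q members.

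The log2 fold change of H2-Q2 was 1.76 (SE 0.61, 95% interval 0.47 to 3.04), 3.38 times the vehicle level, with an adjusted p of 0.0644. Leaving out FC1, MC3 or MR2 brought the adjusted p to 0.0405, 0.0447 and 0.0362, and leaving out the library labelled MR4 gave 1.60 with 0.0900. With a replicate block in place of batch it was 0.0421, and with no filter on low counts 0.000317. With the mitochondrial share or the exon length slope as a covariate the change was 2.85 (adjusted p = 0.537) and 2.52 (adjusted p = 0.761).

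**Figure D2:**
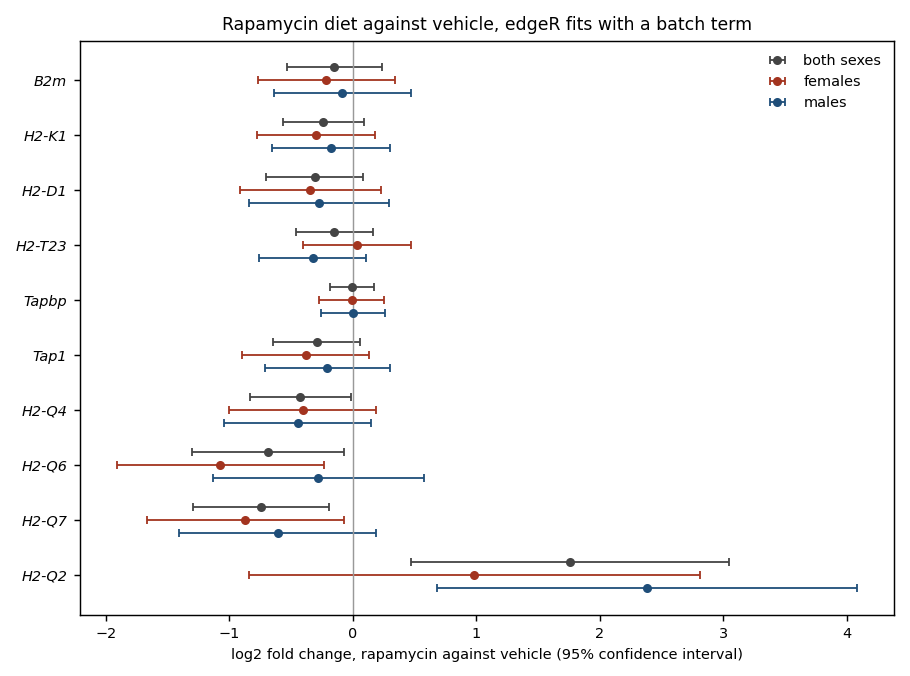
Log2 fold change of each member for rapamycin against vehicle, with 95% confidence intervals from edgeR, over both sexes (16 libraries) and within females and males. In each sex 8 of the 10 members lie below 0, beside 47.9% of all genes in females and 48.7% in males, and H2-Q2 lies above 0 with the widest intervals.

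Within females no member was called by edgeR, where 0.0121% of all genes (2) were, and DESeq2 called none. Of the members 2 had an unadjusted p under 0.05, as did 23.1% of genes: H2-Q6, with a log2 fold change of -1.07 (SE 0.40, adjusted p = 0.122), and H2-Q7, with -0.87 (SE 0.38, adjusted p = 0.177). H2-Q2 stood at 0.98 (SE 0.87) and the classical heavy chains at -0.30 (H2-K1) and -0.34 (H2-D1). The fit did not pair FC and FR libraries by number, although same-numbered libraries were alike (closing section).

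Within males neither tool called a member, and edgeR called 0 of 16553 genes (0%). H2-Q2 had an unadjusted p under 0.05, as did 12% of genes, with a log2 fold change of 2.38 (SE 0.81, adjusted p = 0.363). Without 1 library it ran from 1.98 (without MC4) to 3.64 (without MC3), and without the library labelled MR4 it was 2.04 (adjusted p = 0.703). H2-Q7 stood at -0.61 (SE 0.38) and H2-Q6 at -0.28 (SE 0.41). The library labelled MR4 was the highest MR library for both genes, at 2.83 and 3.24 CPM. Their changes within males are given only with it.

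The difference between the diet effects of the sexes was tested as an interaction. Neither tool called a member, edgeR called 0% of genes, no member had an unadjusted p under 0.05 beside 2.17% of genes, and each adjusted p was 0.999. For H2-Q6 the female change minus the male change was -0.79 (95% interval -1.99 to 0.40), and for H2-Q2 it was -1.40 (-3.88 to 1.08). These intervals are wide, and no difference between the sexes was detected with 4 libraries in a group. The library labelled MR4, with Xist and without Y-linked read pairs, counted as male in this contrast.

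On the vehicle diet females were compared with males. No member was called by edgeR or DESeq2 (0.0121% of all genes by edgeR), and each adjusted p was 0.999. For 8 of 10 members the log2 difference of females over males was positive, with a median of 0.24 beside -0.00 over all genes, of which 50.4% lay below 0. H2-Q6 had an unadjusted p of 0.0324, with a difference of 0.91 (SE 0.39); 3.55% of genes were under 0.05. FC2, which was high for most members, is among these 4 females.

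Batch was compared because it was in every fit. Between batch 2 and batch 1, 35.5% of all genes were called by edgeR and 1 member was, H2-Q7, with a log2 difference of 0.96 (SE 0.27, adjusted p = 0.0107). It lay at 1.44 to 3.49 CPM in batch 2 and 0.724 to 3.17 in batch 1. B2m lay lower in batch 2 at -0.43 (SE 0.20, adjusted p = 0.102), and without the library labelled MR4 it was called, at -0.73 (adjusted p = 0.00336). Within batch 1, with 6 vehicle and 5 rapamycin libraries, the diets overlapped in CPM for all 10 members, as they did for all but 4.59% of genes. Within batch 2, with 2 vehicle and 3 rapamycin libraries, H2-Q2 and H2-Q7 did not overlap, nor did 26.2% of genes. H2-Q7 held 3.30 and 3.49 CPM on vehicle against 1.44, 1.90 and 2.83 there, and H2-Q2 held 0.336 and 0.541 against 0.874, 1.66 and 6.44. In batch 1 alone H2-Q7 changed by -0.73 (adjusted p = 0.176) and H2-Q2 by 1.45 (adjusted p = 0.221).

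Across libraries the members other than H2-Q2 were positively correlated with each other, to differing degrees. These correlations are Pearson's r of log2 CPM over 16 libraries after batch means were subtracted; they describe libraries that share diet and sex groups, dissection and depth. H2-K1 and H2-D1 had an r of 0.960, B2m with H2-D1 0.923 and B2m with H2-K1 0.901. H2-Q4 stood with H2-K1 at 0.887. The weakest of these pairs were Tapbp with H2-Q7 (0.376), Tap1 with H2-T23 (0.386) and Tapbp with H2-Q6 (0.445). With batch means left in, B2m and H2-Q7 had an r of 0.176. H2-Q2 had a negative r with each of the other 9 members, from -0.168 with Tapbp to -0.554 with H2-Q4.

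**Figure D3:**
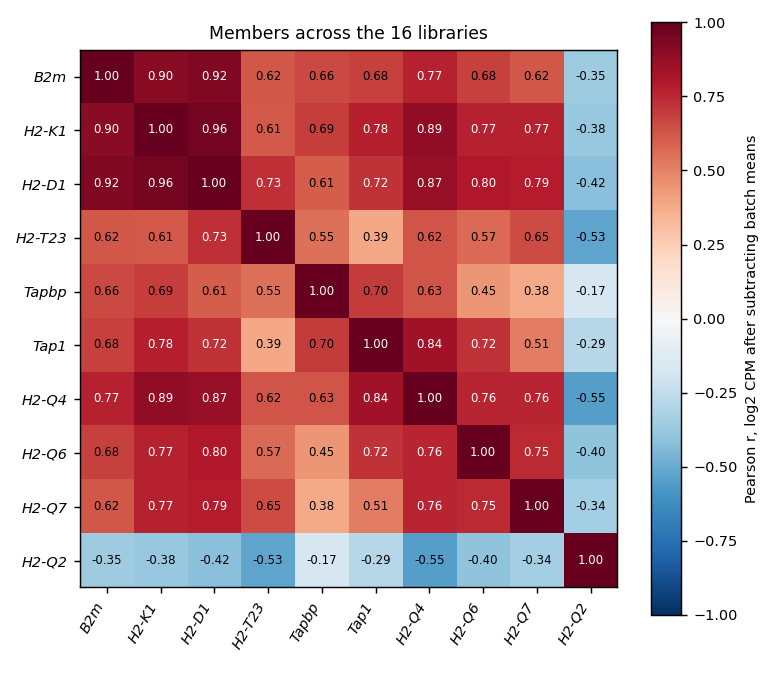
Pearson's r between members over 16 libraries, from log2 CPM after subtracting batch means, on a colour scale from -1 to 1. The block from B2m to H2-Q7 is positive throughout, and the H2-Q2 row is negative throughout.

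For each member the 3 non-member genes with the highest r were named. B2m was most like Psmb8, a subunit of the immunoproteasome that cuts peptides for class I (r = 0.958), then Cd52 (0.955), a surface protein of leukocytes, and Slamf9 (0.933). H2-D1 was most like Psmb8 (0.931), Cd14 (0.911), a receptor of myeloid cells for lipopolysaccharide, and Ctsb (0.900), a lysosomal protease. H2-K1 was most like Cd14 (0.903), Hvcn1 (0.901), a voltage-gated proton channel, and Slamf9 (0.896). Psmb8 itself had a diet change of -0.25 (SE 0.25, adjusted p = 0.532).

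Tap1 was most like Ddx60 (0.908), Dtx3l (0.899) and Fcgr2b (0.864), the first 2 known as interferon-induced genes and the third as the inhibitory Fc gamma receptor. H2-Q4 was most like Ifi27 (0.892) and Bst2 (0.875), both interferon-induced, and Csf1 (0.852), a growth factor of microglia. H2-Q7 stood with Man2b1 (0.803), Ifi27l2a (0.787) and AI506816 (0.787), and H2-Q6 with Trpm1 (0.83), the class I gene H2-M3 (0.807) and Cd14 (0.802). Tapbp stood with Lpxn (0.852), Usp18 (0.787) and 9130023H24Rik (0.772), and H2-T23 with Slc45a3 (0.854), Ghitm (0.841) and Bend5 (0.814).

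H2-Q2 had other partners: Cabp7, a neuronal calcium-binding protein (r = 0.932), Casp1, the inflammasome protease (0.914), and Rmst, a long noncoding RNA (0.908). Cabp7 was at 91.0, 75.3 and 99.8 CPM in MR1, MR3 and MR4, 18.3 in MR2 and 81.5 in MC3, so it was high and low in the same male libraries as H2-Q2. Casp1 was at 7.67, 8.14 and 13.4 CPM in MR1, MR3 and MR4, 3.50 in MR2 and 8.01 in MC3. None of the 3 was called for diet by edgeR (Cabp7 0.54, adjusted p = 0.289; Casp1 0.73, adjusted p = 0.113; Rmst 0.73, adjusted p = 0.0805).

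**Figure D4:**
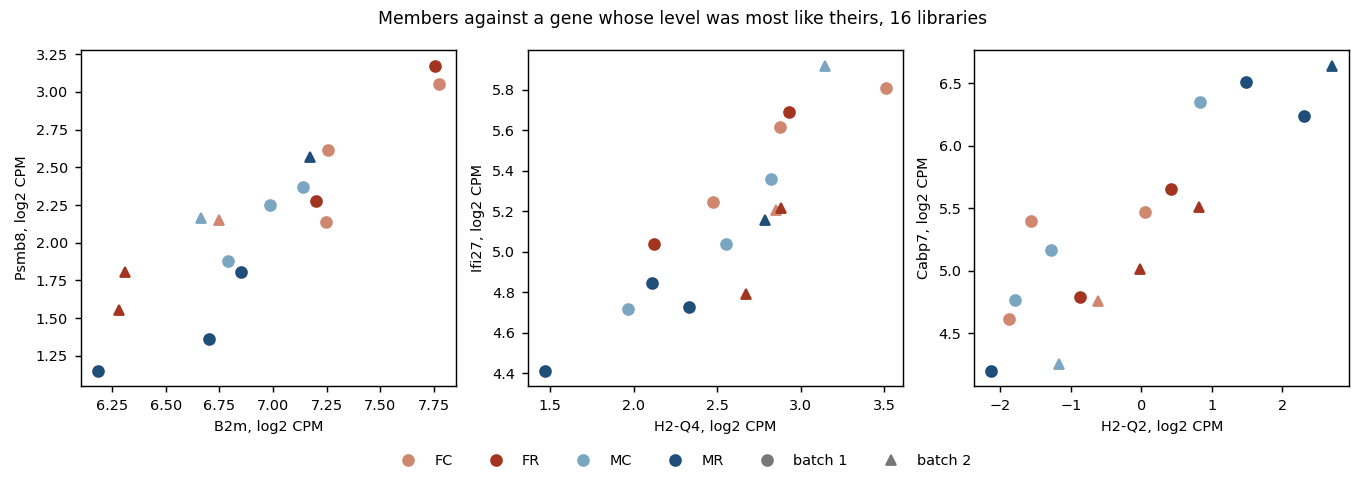
Log2 CPM of B2m against Psmb8, H2-Q4 against Ifi27 and H2-Q2 against Cabp7 in the 16 libraries, coloured by group, with circles for batch 1 and triangles for batch 2. In the right panel MC3 lies with MR1, MR3 and MR4, and MR2 lies at the lower end.

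The rest of the pathway was read from lists of 201 entries in 18 groups, tested in the fit over both sexes, where 6.46% of all genes were called higher and 6.86% lower. Among 18 interferon-stimulated genes, 3 were lower: Ifit1 (-0.89, SE 0.23, adjusted p = 0.0217) and Ifit2 (-0.36, SE 0.11, adjusted p = 0.0446), which bind viral RNA, and Oasl2 (-0.90, SE 0.24, adjusted p = 0.0242). All 18 had log2 fold changes below 0, with a median of -0.43. No gene of this list was called without MC4, without a batch term, with either covariate above or in batch 2 alone, 1 was without FR1 or without MR2, 5 were without FC4 or without FR2, and with no filter 10 were.

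Of 23 regulators of class I expression 1 was lower, Nlrc5, the transactivator of class I genes, at -0.92 (SE 0.27, adjusted p = 0.0319), from 0.302 to 3.63 CPM over the libraries. The call was lost without any of FC1, FC2, FR1, FR5, MC4 or MR2. Irf1 (0.10, adjusted p = 0.708), which carries interferon signals to class I promoters, and Rfx5 (-0.08, adjusted p = 0.714), which binds them, were not called.

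Of 6 immunoproteasome and activator genes, 2 were higher, against the sign of most members: Psmb10, a catalytic subunit, at 0.36 (SE 0.12, adjusted p = 0.0451), and Psme1, a subunit of the proteasome activator, at 0.34 (SE 0.10, adjusted p = 0.0348). Neither of the other interferon-induced catalytic subunits was called, with Psmb8 at -0.25 and Psmb9 at -0.18. No gene of this list was called in 10 of the 16 fits that each left out 1 library.

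Of 11 peptide loading genes, Sec61b, of the channel into the endoplasmic reticulum, was higher at 0.30 (SE 0.10, adjusted p = 0.0459), a call lost in 13 of 16 such fits. Lnpep, an aminopeptidase of endosomes, was lower at -1.31 (SE 0.33, adjusted p = 0.0208), and Tpp2, a cytosolic peptidase, was lower at -0.29 (SE 0.07, adjusted p = 0.0183). The list held 1 lower call without MC4, and none without a batch term, with either covariate or in batch 2 alone. Tap2, the partner of Tap1, stood at -0.04 (adjusted p = 0.888), and the chaperones Calr and Canx at 0.03 and -0.05.

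Of 11 other class I heavy chains tested, 0 were called by edgeR (3 at an unadjusted p under 0.05, 2 by DESeq2) and 9 had a change below 0, with a median of -0.18. In batch 2 alone 6 of these 11 lay below 0, with a median of -0.001. H2-Q8, H2-Q9 and H2-T9 were not among the gene names used here. Of 10 class II genes tested, 0 were called by edgeR or DESeq2, 0 had an unadjusted p under 0.05, and 8 lay below 0. Of 12 receptors and partners of class I found, 4 could be tested; the T cell coreceptor Cd8a had a median of 0.0585 CPM. Insr, whose product associates with class I at the cell surface, was lower at -0.26 (SE 0.08, adjusted p = 0.0486), a call lost in 13 of the 16 fits.

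**Figure D5:**
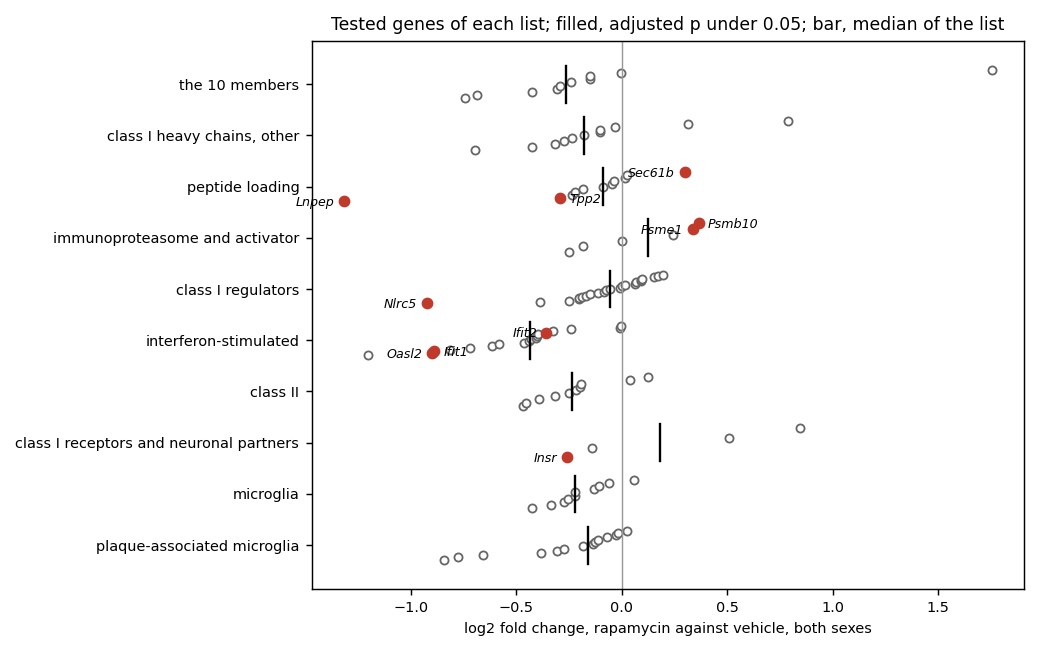
Log2 fold changes for rapamycin against vehicle over both sexes, for the members and for the tested genes of each list; filled points have an adjusted p under 0.05 and bars mark medians. No member is filled, and the interferon-stimulated list lies wholly below 0.

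Microglia markers lay lower with rapamycin in 9 of 10 genes (median -0.22), with 0 called by edgeR (2 at an unadjusted p under 0.05) and 1 by DESeq2. Their summed level was 542 to 677 CPM in FC, 439 to 480 in FR, 430 to 534 in MC and 288 to 563 in MR. Of 14 markers of plaque-associated microglia 13 lay below 0 (median -0.16), with sums of 1592 to 2768, 1246 to 2288, 1527 to 2073 and 1350 to 2004 CPM in FC, FR, MC and MR; 0 were called by edgeR (1 at an unadjusted p under 0.05) and 1 by DESeq2. In batch 2 alone 5 of 10 microglia markers lay below 0 (median 0.004), as did 8 of 14 plaque-associated markers (median -0.026). In batch 1 alone 9 and 12 lay below 0. Without FC2 the plaque-associated median was -0.065, with 11 below 0. The r with the microglia sum was 0.641 for B2m, 0.611 for H2-D1, 0.750 for Tap1, 0.108 for H2-T23 and -0.072 for H2-Q2. With the plaque-associated sum it was 0.880 for B2m, 0.887 for H2-D1, 0.863 for H2-K1, 0.554 for H2-T23 and -0.144 for H2-Q2. With the interferon-stimulated sum it was 0.889 for H2-Q4, 0.802 for B2m, 0.578 for H2-T23 and -0.545 for H2-Q2. For B2m, H2-D1 and H2-K1 it was 0.0988, 0.215 and 0.232 with the endothelial sum and 0.323, 0.321 and 0.302 with the neuronal sum. With the choroid plexus sum the same genes had 0.298, 0.416 and 0.470. Markers of T and NK cells summed to 3.76 to 19.6 CPM, and 3 of the 10 were high enough to test. Choroid plexus markers were below 0 in 10 of 10 genes, with 6 called lower by edgeR (0 without MC4, 2 to 8 without any other 1 library, 0 without a batch term and 10 with no filter; the median of -1.87 went to -0.81 without MC4), and summed to 1989 CPM in MC4 against 13.6 to 331 CPM in the other 15 libraries. The part of these cells in the members' levels was not tested.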

How the data were processed

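The authors made cDNA libraries from cortex RNA, sequenced them in 150 bp pairs, and deposited read pair counts per gene. Their processing notes name Trim Galore, FastQC 0.11.9, Trimmomatic 0.39, HISAT2 2.2.1, featureCounts 2.0.3 and the builds mm10 and GRCm38.p4; the file header shows counting over exons by gene name without strand, with multimapped pairs left out by default. Copies of the counts per group differed in 0 cells.

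Here counts were filtered (edgeR's filterByExpr, minimum count 10), scaled by TMM and tested in R 4.3.3 with edgeR 4.0.16's quasi-likelihood test and Benjamini-Hochberg adjustment over 16553 genes, with terms sex, batch and diet, or group and batch. Called means an adjusted p under 0.05, and DEGs also changed 1.5-fold. Log2 CPM used a prior count of 2, and RPKM is CPM per kilobase of exon. Alternatives, DESeq2 1.42.0 included, stand in the closing section. Tests were checked on simulated data, and libraries by pairwise chi-square, which found no duplicate.

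The named genes were all members, the antigen presentation genes called over both sexes and the 3 genes most like each member; other genes were chosen after their values were seen. The members, by name, and the lists were chosen with earlier results of these data known. Promoters came from RefSeq (10 of 10 matched), shared windows from GENCODE transcripts, and figures from matplotlib 3.10.9. Intervals cover 95%.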

Additional observations from a re-analysis of the deposited data

Results flagged for a closer look

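In each group of 4 libraries the gap of the highest or lowest library to its nearest neighbour was set against the range by Dixon's test. Of 40 such groups 5 stood past it, and chance gives about 1 in 20. H2-D1 in FC2 was at 149.7 CPM, with the next FC library at 84.5, and H2-T23 in FC2 was at 34.67 CPM, with the next at 23.3. H2-Q2 in MC3 was at 1.672 CPM, with the next MC library at 0.336. H2-Q6 in FC3 was low, at 1.85 CPM, with the next FC library at 4.495. H2-Q7 in the library labelled MR4 was at 2.832 CPM, with the next MR library at 1.01. FC2 is thus apart for 2 members, and no group was apart for B2m, H2-K1, Tap1, Tapbp or H2-Q4.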

How the results depend on the processing

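Over both sexes the count of members called was 0 as reported, 1 with a replicate block in place of batch (H2-Q2, 1.91, adjusted p = 0.0421), 1 with DESeq2 (H2-Q7, -0.74, adjusted p = 0.0378), 2 with no filter (H2-Q2, adjusted p = 0.000317, and H2-Q7, 0.0471) and 0 to 1 without 1 library (H2-Q2 without FC1, MC3 or MR2, H2-Q7 without FC3). With no filter 1 member was called in females (H2-Q6, lower) and 1 in males (H2-Q2, higher). For batch, 2 members were called with no filter, 0 with the mitochondrial share as a covariate, and 1 to 2 without 1 library. Without 1 library 4265 to 6211 of all genes were called for batch. The share of all genes called with DESeq2 or with no filter is not given here, so those member counts lack a baseline. The cause of these shifts in calls was not tested. Signs turned for Tap1 in batch 2 alone (0.16), for Tapbp with no batch term (0.0077), in batch 2 alone (0.16) and without 1 library (-0.053 to 0.029), and for B2m between batches with the exon length slope as a covariate (0.0071). H2-K1, H2-D1, B2m, H2-T23 and the H2-Q genes kept their direction for diet over both sexes under the 9 other settings and all 16 fits without 1 library. The batch 2 fit had 5 libraries.

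Over all genes DEGs numbered 374 over both sexes, 36 with no batch term, 586 with no filter, 3 in batch 2 alone, 0 with the mitochondrial share or the slope as a covariate, and 156 to 571 without 1 library. Genes at an adjusted p under 0.05 numbered 2205, and 142, 1298 and 1240 with no batch term, the replicate block and batch 1 alone. Without 1 library they numbered 719 (without FR1) to 3352 (without FR4). Replicate numbers were not taken to pair libraries, since not every same-numbered pair had an r of deviations above 0.1: within batch 1 r ran from -0.157 to 0.506, and for other pairs from -0.167 to 0.406. Within batch 2 same-numbered pairs had an r of 0.351 to 0.675, and pairs with FR5 0.163 to 0.24. Between FC and FR the same-numbered pairs had an r of 0.435, 0.447 and 0.675. Other FC and FR pairs of the same batch had 0.0826 to 0.249. The female comparison as reported did not take up this likeness. At 2 to 125 read pairs, the depth limits H2-Q2 most.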

Other observations

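Outside antigen presentation, 2 of 8 astrocyte markers were higher with rapamycin over both sexes by edgeR: Aldoc, a glycolytic enzyme of astrocytes (log2 fold change 0.40, SE 0.07, adjusted p = 0.0104), and S100b, a calcium-binding protein (0.33, SE 0.07, adjusted p = 0.0152). Of the 8 astrocyte markers 5 lay above 0 and 3 below, and with no filter on low counts 1 was called lower. Of 10 endothelial markers 1 was higher, Ly6c1 (0.59, SE 0.16, adjusted p = 0.0250), with 8 above 0 and 2 below. Of 10 neuronal markers 0 were called, with 1 at an unadjusted p under 0.05. With the mitochondrial share or the exon length slope as a covariate none of these was called. These genes were named after their values were seen. With the class II sum the r was 0.913 for B2m, 0.853 for H2-K1 and 0.843 for H2-D1, over 16 libraries with batch means subtracted. It was lowest for H2-T23 (0.445) among the positive members and negative for H2-Q2 (-0.246). With the low sum of T and NK cell markers it was -0.814 for H2-Q2 and 0.684 for H2-T23. The other members had 0.139 (Tap1) to 0.489 (H2-Q4) with that sum.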
